A study of Mus musculus with 8 samples.

Results

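Mitochondrial ribosomal proteins build the ribosome inside mitochondria. Their genes were taken from the deposited table as the symbols that start with Mrpl or Mrps followed directly by a digit, leaving out symbols that contain -ps, of which there were 0. The rule gave 69 of 23930 genes: 43 Mrpl genes, named for the large subunit, and 26 Mrps genes, named for the small subunit. All 69 reached 1 RPM (reads per 1000000 reads) in at least 4 libraries and were tested, so no member was lost to the filter on low values. The rule used symbols only and no measured value.

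The RNA came from the tibialis anterior, a fast muscle at the front of the shin in mice, in a study of succinate dehydrogenase (complex II of the respiratory chain) in muscle. The 4 KO libraries are labelled inducible HSA-Cre/Lox-SDHC, with the strain written as C57BL/7 in 1 library and C57BL/8 in 3, and the 4 WT libraries inducible HSA-Cre/No Lox on C57BL/6. Mice of both groups carried the recombinase and received tamoxifen when 12 weeks old, and were sampled 20 weeks after that. HSA is the human skeletal actin promoter, which is active in muscle fibres, so endothelial, connective tissue and immune cells of the muscle keep Sdhc. Sdhc, which encodes an anchor subunit of complex II, had 17.1, 14.5, 22.8 and 49.4 RPM in KO libraries 1 to 4, against 574, 693, 795 and 722 RPM in WT libraries 1 to 4. The KO mean was 3.73% of the WT mean (two-sided exact permutation p = 0.0286, and 4 against 4 allows no smaller one). By Xist and Ddx3y, given further on, KO 4 and WT 1 read as female and the other libraries as male. Libraries held 4774602 to 7281574 reads in KO and 5989770 to 7091352 reads in WT. All 6 muscle fibre markers were present, and their sums were 65934 to 104343 RPM in KO and 86115 to 131533 RPM in WT libraries.

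The mitochondrial ribosome translates the few messenger RNAs of mitochondrial DNA, all of which encode subunits of respiratory complexes I, III, IV and of ATP synthase; complex II has none. Its ribosomal RNAs come from mitochondrial DNA, but every one of its proteins is encoded in the nucleus, made in the cytosol and imported. Some of these proteins descend from bacterial ribosomal proteins and others were added in the mitochondrial lineage. Muscle fibres rely on this translation for oxidative phosphorylation.

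Nuclear genes of this kind are known for promoters with sites for NRF1, for ETS factors such as GABP, and for YY1, and promoter windows were read for the members. RefSeq (GRCm38.p6) gave 67 windows of 300 bases, from 250 before to 50 after the start, for 61 of the 69 genes. These RefSeq starts can differ from the GENCODE gene bounds given further on. The Mrpl39 window lies wholly within the GENCODE bounds of its gene. The windows printed here belong to the genes with the smallest p in each subunit, described further on (Mrpl3 and Mrpl39, Mrps12 and Mrps23). Capitals mark the ETS letters CCGGAAG, the NRF1 half-site letters GCGCATG or the YY1 letters AAGATGG on either strand, and all else is in lower case, 5′ to 3′ on the strand of the gene.
Mrpl3 promoter, chr9:105053018-105053317, plus strand: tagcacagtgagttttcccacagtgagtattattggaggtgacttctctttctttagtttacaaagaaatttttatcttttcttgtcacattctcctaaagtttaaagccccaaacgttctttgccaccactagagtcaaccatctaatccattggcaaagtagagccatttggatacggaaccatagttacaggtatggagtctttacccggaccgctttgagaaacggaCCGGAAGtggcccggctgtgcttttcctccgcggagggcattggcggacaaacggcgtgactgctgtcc
Mrpl39 promoter, chr16:84735195-84735494, minus strand: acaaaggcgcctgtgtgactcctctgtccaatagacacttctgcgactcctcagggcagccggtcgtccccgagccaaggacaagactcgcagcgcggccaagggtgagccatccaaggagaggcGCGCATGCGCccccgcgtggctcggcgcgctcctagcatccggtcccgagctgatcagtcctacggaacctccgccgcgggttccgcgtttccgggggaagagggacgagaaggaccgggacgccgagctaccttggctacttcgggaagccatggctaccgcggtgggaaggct
Mrps12 promoter, chr7:28741772-28742071, minus strand: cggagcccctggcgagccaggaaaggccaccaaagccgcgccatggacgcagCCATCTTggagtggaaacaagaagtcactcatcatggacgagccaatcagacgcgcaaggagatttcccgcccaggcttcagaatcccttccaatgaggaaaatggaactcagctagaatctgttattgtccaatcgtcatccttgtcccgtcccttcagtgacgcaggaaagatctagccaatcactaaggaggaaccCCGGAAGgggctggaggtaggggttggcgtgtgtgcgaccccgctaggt
Mrps23 promoter, chr11:88204138-88204437, plus strand: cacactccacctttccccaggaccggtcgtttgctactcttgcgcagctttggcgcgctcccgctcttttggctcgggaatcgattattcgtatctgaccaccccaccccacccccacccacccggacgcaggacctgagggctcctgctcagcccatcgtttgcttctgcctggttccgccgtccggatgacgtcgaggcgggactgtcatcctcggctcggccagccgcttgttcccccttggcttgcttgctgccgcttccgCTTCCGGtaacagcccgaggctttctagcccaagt

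The ETS letters stood in 20 of the 67 windows (29.9%), against 16.9% of 10828 windows of tested genes and 8.86% of all 32851 windows. They were in 10 of 42 large subunit windows (23.8%) and 10 of 25 small subunit windows (40%). The window of Mrps12 holds both ETS and YY1 letters. The YY1 letters were in 13 windows (19.4%; 7 large, 6 small), against 7.03% of the windows of tested genes and 6.34% of all windows. NRF1 half-site letters were in 7 windows (10.4%; 6 large, 1 small), against 6.79% of the windows of tested genes, and in Mrpl39 they stand on both strands and overlap, which gives a run of capitals longer than the motif. For SP1 (GGGCGG) the share was 52.2% of member windows and 62.2% of those of tested genes. The E-box CACGTG stood in 10.4% against 9.9%, and the TATA box TATAAA in 7.46% against 7.27%. Overlapping windows of the same gene were counted separately, and those of Mrpl2 all held the E-box and SP1 letters. The NRF1 and YY1 strings are shortened forms, taken after counts for longer ones had been seen. Each motif was searched on both strands, and none of these strings contains another. These matches describe the letters in a window and were not measured as binding sites.

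None of the 69 genes passed the test between KO and WT muscle (limma, Benjamini-Hochberg adjusted p under 0.05 over 11087 genes), while 89 of all genes tested did (0.803%), 58 of them higher (0.523%) and 31 lower (0.28%) in KO. The smallest adjusted p among the members was 0.163, for Mrpl3. At an unadjusted p under 0.05 there were 13 members, all higher in KO (18.8%), where the same threshold held 13.1% of all genes tested in that direction and 3.07% in the other. Of these, 9 were large and 4 small subunit genes. On the reads recovered from the table, edgeR gave 0 members past the adjusted threshold and 5 at an unadjusted p under 0.05 (3 higher, 2 lower), where 6.06% of all genes tested were higher and 7.02% lower at that threshold. DESeq2 gave 0 and 5 (2 higher, 3 lower), with 5.17% of all genes higher and 6.53% lower. In bulk RNA, fewer cells of a type and less RNA per cell cannot be told apart.

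The changes were small. The ratio of the KO mean to the WT mean lay between 0.842 (Mrps10) and 1.40 (Mrps23). Intervals were taken on log2(RPM + 1), a scale that understates changes of low genes. The 95% limma interval of the difference lay within 2-fold in either direction for all 69 members (93.2% of all genes tested). It lay within 1.5-fold for 50 members (72.5%; 33 large, 17 small), and for 50.4% of all genes tested. A change beyond 2-fold on that scale therefore lay outside the interval of every member, and the intervals of the other 19 reached past 1.5-fold.

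**Figure D1:**
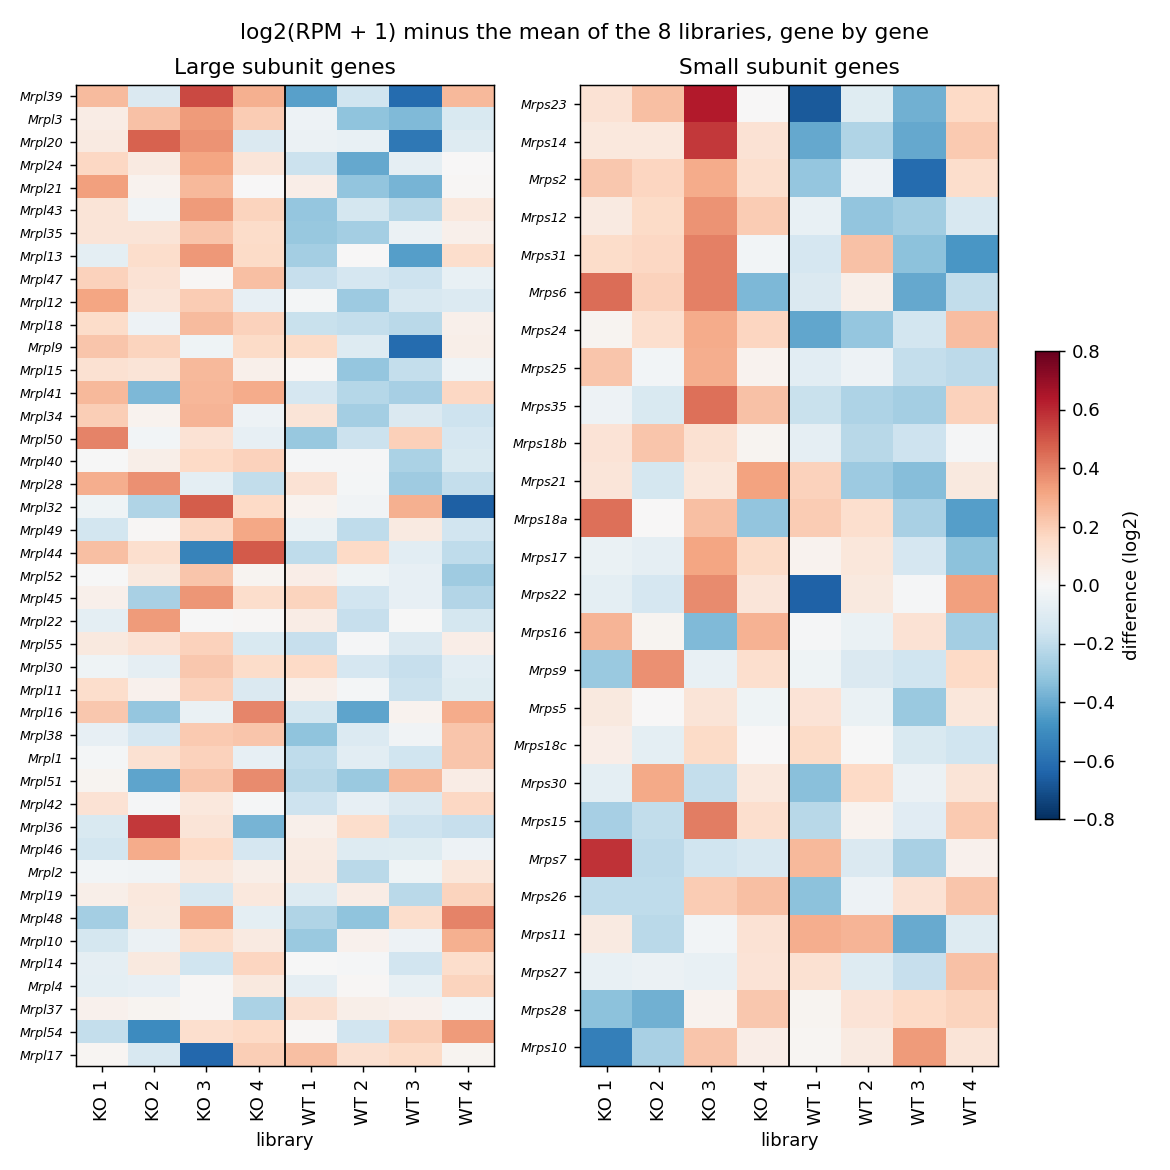
Level of each mitochondrial ribosomal protein gene in each library, as log2(RPM + 1) minus the mean of the 8 libraries, with KO libraries left of the line and WT libraries right of it. Genes are ordered by log2 fold change within each subunit. Reds are most frequent in KO 3 and blues in WT 3: 27 of the 69 genes were highest in KO 3 and 20 were lowest in WT 3.

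The medians of the subunits lay close together. The median log2 fold change of RPM + 1 was 0.16 over the 43 large and 0.15 over the 26 small subunit genes, a difference of 0.01, and it was 0.13 over all 11087 genes. Genes with a mean level between the lowest and highest member (5.02 to 1410 RPM) had the same median, 0.13. That range held 8295 of the 11087 genes, so these genes were not matched to the members in level. The fold change was positive for 39 large and 22 small subunit genes, 61 of 69 in all, and for 70% of all genes tested. Since some symbols do not give the place of the protein (Mrps18a and Mrps30 sit in the large subunit of mammals), the genes were also divided by place, and the medians were again 0.16 over 45 large and 0.15 over 24 small subunit genes.

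The genes were also grouped by ancestry. Large subunit proteins with a bacterial homologue (27 genes) had a median log2 fold change of 0.18 and mitochondria-specific ones (17 genes) 0.14. In the small subunit the order was the other way round, with 0.09 over 16 genes with a bacterial homologue and 0.26 over 7 mitochondria-specific genes. With TMM factors these medians were 0.057 and 0.0081 in the large and -0.033 and 0.13 in the small subunit, so that one of them turned sign. None of these lists held a gene that passed.

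**Figure D2:**
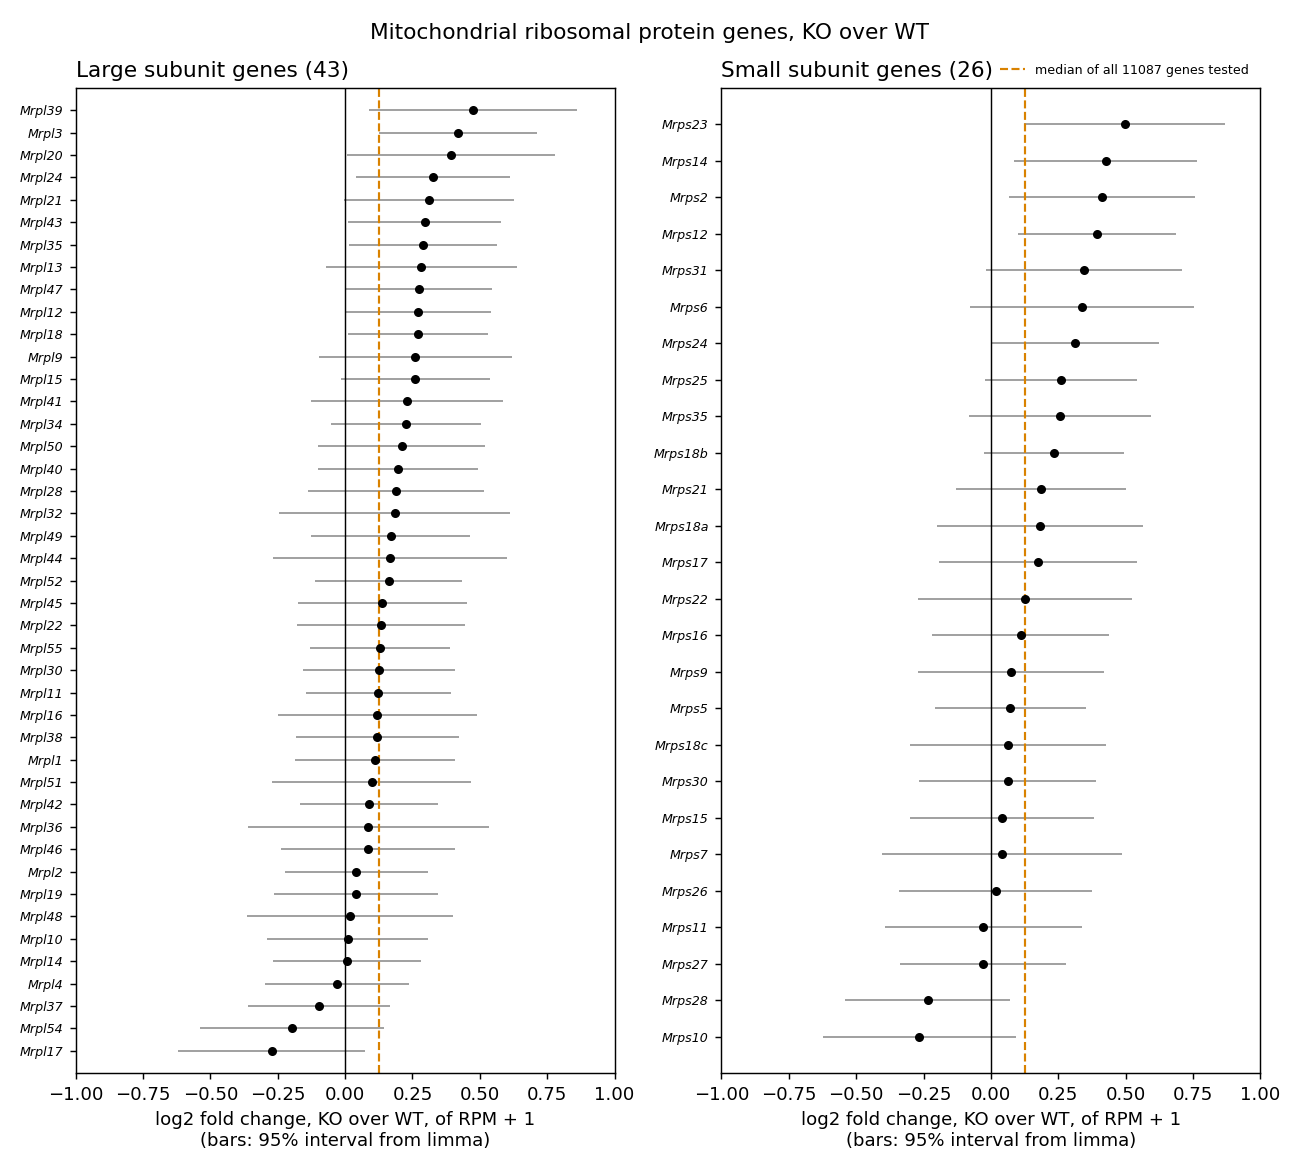
log2 fold change of RPM + 1, KO over WT, for each gene of the large (left) and small (right) subunit, with the 95% limma interval as a bar and the median of all 11087 genes tested as a dashed line. The points of both subunits spread around the dashed line at 0.13, from -0.27 for Mrpl17 to 0.48 for Mrpl39 and from -0.27 for Mrps10 to 0.50 for Mrps23, and no interval reaches 1 or -1.

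The large subunit gene with the smallest p was Mrpl3 (GRCm38 chr9:105053239-105079888, plus strand), a homologue of bacterial L3, a core protein near the catalytic centre. It had 38.1, 43.1, 46.6 and 42.3 RPM in KO libraries 1 to 4, against 35.5, 29.1, 28.4 and 33.5 RPM in WT libraries 1 to 4. Every KO library lay above every WT library, and the means were 42.5 ± 3.48 RPM in KO and 31.6 ± 3.47 RPM in WT (SD, n = 4 each). The log2 fold change was 0.42 (SE 0.138), which did not pass (limma adjusted p = 0.163). Mrpl24, whose bacterial homologue lines the exit of the nascent chain, had 69.3, 65.1, 77.3 and 66.2 RPM in KO, against 54.7, 46.2, 58.7 and 62 RPM in WT libraries. Its groups did not overlap either (log2 fold change 0.33, limma adjusted p = 0.254).

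Mrpl39 (chr16:84717576-84735742, minus strand) encodes a mitochondria-specific protein of the large subunit and had the highest fold change of the Mrpl genes. It had 132, 102, 160 and 135 RPM in KO libraries, against 81.6, 99, 72 and 133 RPM in WT libraries. WT 4 lay within the KO values, so the groups overlapped (log2 fold change 0.48, SE 0.182, limma adjusted p = 0.216). Mrpl18, a homologue of bacterial L18 in the central protuberance, had 494, 433, 533 and 508 RPM in KO, against 395, 392, 384 and 459 RPM in WT libraries. WT 4 again lay above the lowest KO library (log2 fold change 0.27, limma adjusted p = 0.294). Mrpl35, Mrpl43 and Mrpl20 had log2 fold changes of 0.29, 0.30 and 0.39 with limma adjusted p of 0.293, 0.294 and 0.303.

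The stalk of the large subunit recruits translation factors, and 4 of its genes were measured. Mrpl12, whose protein also binds the mitochondrial RNA polymerase, had 225, 193, 208 and 172 RPM in KO, against 179, 148, 165 and 167 RPM in WT libraries, and KO 4 lay among the WT values (log2 fold change 0.27, limma adjusted p = 0.305). Mrpl10, the stalk's anchor, averaged 102 ± 9.01 RPM in KO and 102 ± 17 RPM in WT (SD, n = 4 each; log2 fold change 0.01). Mrpl11, at the base of the stalk, averaged 80.3 ± 7.4 RPM in KO and 73.6 ± 4.74 RPM in WT (log2 fold change 0.12). Mrpl54 had 140, 112, 175 and 178 RPM in KO, against 160, 143, 183 and 202 RPM in WT libraries (log2 fold change -0.20). The median of the 4 stalk genes was 0.07, below the 0.13 of all genes tested. With TMM factors Mrpl12 was at 0.14, while Mrpl10, Mrpl11 and Mrpl54 were at -0.12, -0.0064 and -0.33, and the median turned to -0.063.

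The small subunit gene with the smallest p was Mrps12 (chr7:28739641-28741820, minus strand), the homologue of bacterial S12, a protein of the decoding centre. It had 31.5, 33.5, 38.7 and 34.7 RPM in KO libraries, against 28.8, 23.9, 24.5 and 27.4 RPM in WT libraries. The groups did not overlap (log2 fold change 0.39, SE 0.139, limma adjusted p = 0.186). Its start lies 172 bases from that of Sars2, the mitochondrial seryl-tRNA synthetase gene on the other strand, which averaged 18 ± 3.07 RPM in KO and 16.7 ± 2.06 RPM in WT (log2 fold change 0.09, limma adjusted p = 0.814).

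Mrps23 (chr11:88204388-88211507, plus strand), a mitochondria-specific protein of the small subunit, had the highest fold change of all 69 genes. It had 318, 347, 455 and 294 RPM in KO libraries, against 184, 274, 224 and 327 RPM in WT libraries. KO 3 was the highest and WT 1 the lowest, and WT 4 lay among the KO values (log2 fold change 0.50, SE 0.176, limma adjusted p = 0.189). Mrps14 (chr1:160195215-160202170, plus strand), a homologue of bacterial S14 in the head of the small subunit, had 133, 133, 186 and 136 RPM in KO, against 94.1, 106, 94.2 and 145 RPM in WT libraries. Here too the groups overlapped through WT 4 alone (log2 fold change 0.43, limma adjusted p = 0.21). Mrps2, a homologue of bacterial S2, had 36.3, 35.2, 38.4 and 34.2 RPM in KO, against 24.8, 30.2, 20 and 34.3 RPM in WT libraries (log2 fold change 0.41, limma adjusted p = 0.236).

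The other small subunit genes among the lowest p were Mrps24, Mrps31, Mrps25 and Mrps18b, with log2 fold changes of 0.31, 0.35, 0.26 and 0.23 and limma adjusted p of 0.312, 0.334, 0.346 and 0.354. Mammals have 3 genes for relatives of bacterial S18, whose products occupy different places in the ribosome. Mrps18a had 86.9, 64.1, 75.5 and 51.1 RPM in KO, against 73.6, 70.1, 53.2 and 46.8 RPM in WT libraries, with a log2 fold change of 0.18. Mrps18b had 91, 98.4, 91.9 and 85.7 RPM in KO, against 80.2, 72.3, 75.1 and 84 RPM in WT libraries. Of the 3, Mrps18b alone had groups that did not overlap. Mrps18c, one of the lowest members, averaged 5.51 ± 0.437 RPM in KO and 5.24 ± 0.616 RPM in WT (SD, n = 4 each; log2 fold change 0.06). Mrps30, whose product is a large subunit protein, averaged 44 ± 6.84 RPM in KO and 42.1 ± 6.25 RPM in WT (log2 fold change 0.06).

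**Figure D3:**
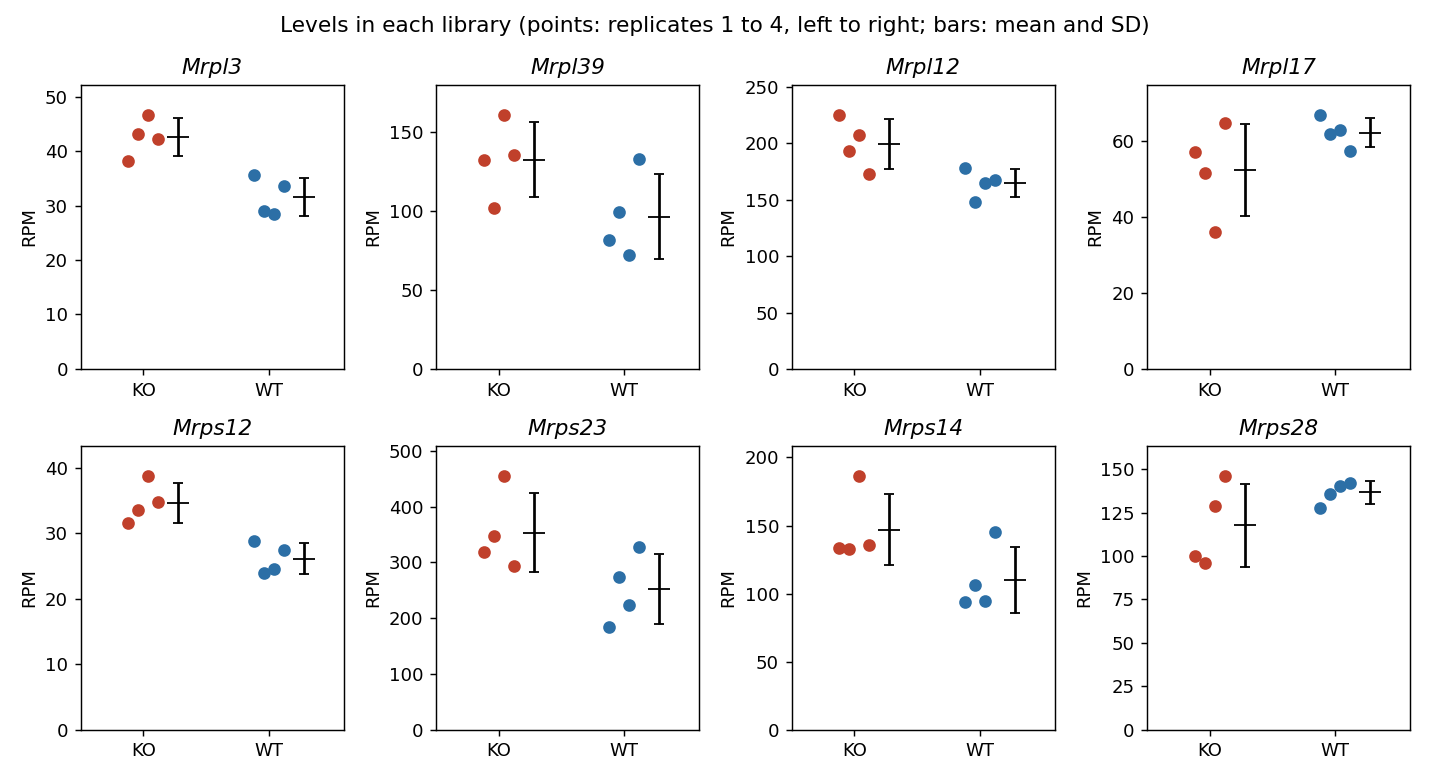
RPM in each of the 4 KO and 4 WT libraries, with the mean as a line and the SD as a bar, for members of both subunits; each vertical axis starts at 0. In the panels of Mrpl3 and Mrps12 every KO point lies above every WT point, while Mrps23, Mrps14 and Mrpl39 overlap through WT 4, and Mrpl17 and Mrps28 have lower means in KO than in WT with overlapping points.

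Only 8 members had a negative log2 fold change, and in none of them were all KO libraries below all WT libraries. Mrpl17, a homologue of a bacterial protein at the exit of the large subunit, had 57, 51.5, 36 and 64.8 RPM in KO, against 66.7, 61.8, 62.7 and 57.3 RPM in WT libraries (log2 fold change -0.27, limma adjusted p = 0.419). KO 3 was the lowest and KO 4 lay among the WT values, and without KO 3 the log2 fold change was -0.11. Mrps10 (chr17:47368887-47381417, plus strand), a homologue of bacterial S10, had 23.5, 28.9, 40.9 and 36.3 RPM in KO, against 35.3, 36.7, 44.3 and 37.6 RPM in WT libraries (log2 fold change -0.27, limma adjusted p = 0.442). Mrps28 (chr3:8802146-8923918, minus strand) had 99.9, 96.1, 128 and 146 RPM in KO, against 128, 136, 141 and 142 RPM in WT libraries (log2 fold change -0.23, limma adjusted p = 0.431). In both genes the low values were those of KO 1 and KO 2. The log2 fold change was -0.13 for Mrps10 without KO 1 and -0.15 for Mrps28 without KO 2. For Mrpl54 it was -0.064 without KO 2 and -0.12 without WT 4. Mrpl54, given with the stalk, Mrpl37 (-0.10) and Mrps27 (-0.03) were also below 0, as were Mrpl4 and Mrps11, named here after their values were seen.

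The 42 members not chosen by the naming rule had log2 fold changes from -0.03 to 0.34 with SE of 0.121 to 0.211, and 40 of them were positive. Their limma adjusted p ran from 0.306 to 0.984, and KO and WT libraries overlapped in 39. Over all genes tested 70% were positive, and libraries did not overlap in 7.5% that were higher and 1.61% that were lower in KO. The 3 members that did not overlap, Mrpl47, Mrpl15 and Mrpl40, are named after their values were seen. Mrpl47 had 48.5, 46.3, 42.8 and 50.5 RPM in KO, against 37.4, 38.7, 37.9 and 40.8 RPM in WT libraries (log2 fold change 0.27, limma adjusted p = 0.306).

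In all, 9 members had every KO library above every WT library (6 large, 3 small; 13.0%) and 0 had the reverse. Over all genes tested the shares were 7.5% higher and 1.61% lower. When TMM factors were added to allow for the different composition of the libraries, 2 members remained in the first class, Mrpl3 and Mrps12, and Mrps10 entered the second. Over all genes the shares were then 3.55% and 3.69%.

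That scaling moved the whole list. RPM divides by the total, and the 50 most abundant genes took 29.5% of reads in KO 3 and 41.7% in WT 1, the lowest and highest of the 8 libraries. TMM factors were 0.978, 1.035, 1.139 and 1.041 for KO libraries 1 to 4 and 0.948, 0.977, 0.898 and 1.003 for WT libraries 1 to 4. With them the median log2 fold change became 0.033 over large and 0.026 over small subunit genes, against 0.0058 over all genes tested. A positive value was then found for 37 of 69 members (24 large, 13 small), and for 51.2% of all genes tested. At an unadjusted p under 0.05 there were then 5 members higher and 4 lower in KO, and over all genes tested 6.14% were higher and 7.17% lower. The sign of 24 members turned, all from positive to negative. The lower ones were Mrps28 (log2 fold change -0.36, limma adjusted p = 0.237), Mrps10 (-0.39), Mrpl17 (-0.40) and Mrpl54 (-0.33). The higher ones were Mrpl3 (0.29), Mrps23 (0.37), Mrps12 (0.27), Mrps14 (0.30) and Mrpl39 (0.35), and none of the 9 passed.

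The shift was also read library by library. The median deviation of the 43 large subunit genes from their 8-library means was 0.05, 0.03, 0.19 and 0.10 in KO libraries 1 to 4 (log2), against -0.05, -0.13, -0.12 and 0.01 in WT libraries 1 to 4. For the 26 small subunit genes it was 0.07, -0.01, 0.23 and 0.11 in KO, against -0.07, -0.04, -0.19 and 0.10 in WT libraries. Over all genes tested it was -0.02, 0.04, 0.17 and 0.06 in KO, against -0.06, -0.02, -0.14 and 0.01 in WT libraries. KO 3 was highest in each of these, and WT 3 or WT 2 was lowest. The groups were separate for the large subunit genes and overlapped for the small subunit genes and for all genes tested, but with TMM factors they overlapped for the large subunit genes too (-0.015 to 0.076 in KO, -0.10 to 0.039 in WT). In KO 1 both member medians were above 0 while that of all genes was below it. The gap between the large and the small subunit deviations was -0.02, 0.04, -0.04 and -0.01 in KO, against 0.02, -0.09, 0.07 and -0.09 in WT libraries, and these values overlapped between the groups.

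KO 3 gave the highest value of 27 members (39.1%; 32.6% of all genes tested) and WT 3 the lowest of 20 (29.0%; 23.7% of all genes tested). Without these 2 libraries, 0 members had an unadjusted p under 0.05 in limma, where 5.52% of all genes tested did in the higher direction, and 9 genes of the table passed. The medians without them were 0.13 over large and 0.09 over small subunit genes, against 0.06 over all genes tested.

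**Figure D4:**
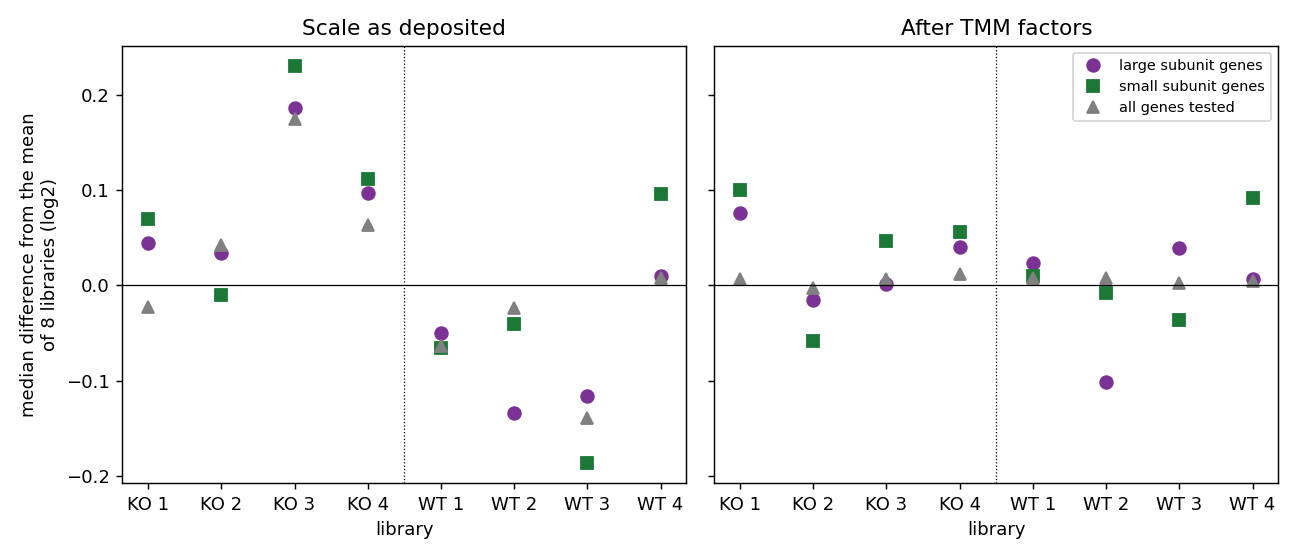
Median deviation from the 8-library mean (log2) in each library for the large subunit genes, the small subunit genes and all genes tested, on the deposited RPM scale and after TMM factors, with KO libraries left of WT libraries. On the deposited scale KO 3 is the highest library in all 3 series, at 0.19, 0.23 and 0.17, while the order of the other libraries differs between series; after TMM factors the all-gene series is flat and the member series lie within 0.11 of 0.

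Levels of the members spanned a wide range, which also reflects how well each amplicon is read, so levels of different genes cannot be ranked as transcript abundance. Mean RPM over the 8 libraries ran from 5.02 for Mrpl36 to 1410 for Mrpl51, with a median of 57.9. The members rested on 22 (Mrps7) to 13129 (Mrpl51) reads in a library, and 57 had at least 100 reads in every library. The coefficient of variation among KO libraries was 3.96% (Mrpl35) to 34.1% (Mrpl36) with a median of 12.7%, and among WT libraries 3.89% (Mrpl47) to 27.9% (Mrpl39) with a median of 12.8%.

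Genes that work with the mitochondrial ribosome were taken from lists and read the same way, and none of them passed in limma. The 4 small subunit proteins without an Mrps symbol had a median log2 fold change of 0.26 (0.13 with TMM factors). Aurkaip1 had the smallest p of the 4 (log2 fold change 0.29, limma adjusted p = 0.386). Ptcd3 and Chchd1 are given outside the naming rule, and Chchd1 had a log2 fold change of 0.26 (limma adjusted p = 0.421). Dap3, a GTP-binding protein of the small subunit, averaged 82.2 ± 10 RPM in KO and 69.1 ± 10.9 RPM in WT (SD, n = 4 each; log2 fold change 0.25, limma adjusted p = 0.394), while Ptcd3 averaged 57.1 ± 6.15 RPM in KO and 65.6 ± 14.8 RPM in WT (log2 fold change -0.17, limma adjusted p = 0.642). Ict1, a peptidyl-tRNA hydrolase built into the large subunit, averaged 71.5 ± 5.78 RPM in KO and 69.1 ± 5.18 RPM in WT (log2 fold change 0.05).

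Of 20 assembly factors tested, 3 (15%) had an unadjusted p under 0.05, all higher in KO, where 13.1% of all genes tested were, and the median log2 fold change was 0.12, against 0.13 over all genes. With TMM factors 1 was higher and 1 lower at that threshold, and the median was -0.0059. The values of all genes tested were then 6.14% higher, 7.17% lower and a median of 0.0058. Mterf4, which brings a methyltransferase to the large subunit RNA, averaged 37.8 ± 8.63 RPM in KO and 25.8 ± 4.83 RPM in WT (log2 fold change 0.53, limma adjusted p = 0.167). Mrm1, a methyltransferase of that RNA, averaged 7.47 ± 0.986 RPM in KO and 5.28 ± 0.593 RPM in WT and its groups did not overlap (log2 fold change 0.43, limma adjusted p = 0.246). Among 14 genes of translation and its messenger RNAs (median 0.11, and -0.023 with TMM factors), Slirp, a stabiliser of mitochondrial messenger RNA, averaged 61.2 ± 13 RPM in KO and 44.9 ± 6.03 RPM in WT (log2 fold change 0.42, limma adjusted p = 0.227).

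The 19 mitochondrial tRNA synthetases tested had a median of 0.05 (-0.079 with TMM factors). Groups did not overlap in 1 that was higher and 1 that was lower in KO (5.26% each). Over all genes tested these shares were 7.5% and 1.61%. Yars2 had all KO libraries above all WT libraries (log2 fold change 0.35, limma adjusted p = 0.305). Its means were 16.5 ± 1.03 RPM in KO and 12.9 ± 2.39 RPM in WT (SD, n = 4 each). Aars2, the alanyl-tRNA synthetase, had all KO libraries below all WT libraries, and the means were 8.9 ± 0.709 RPM in KO and 12.1 ± 1.26 RPM in WT (SD, n = 4 each; log2 fold change -0.40, limma adjusted p = 0.231). Of 7 genes of mitochondrial DNA transcription and copy number (median 0.11, and -0.016 with TMM factors), Tefm, the transcription elongation factor, averaged 16.3 ± 0.613 RPM in KO and 12.3 ± 1.18 RPM in WT without overlap (log2 fold change 0.38, limma adjusted p = 0.23). Top1mt, the mitochondrial topoisomerase, averaged 45.1 ± 8.66 RPM in KO and 60.8 ± 9.84 RPM in WT (log2 fold change -0.43, limma adjusted p = 0.212). Top1mt passed with DESeq2 (adjusted p = 0.0497). Regulators of nuclear genes for mitochondria, 12 genes, had a median of 0.24 (0.12 with TMM factors), with Sp1 at 0.43 and Ppargc1b at 0.36 (limma adjusted p = 0.215 and 0.30).

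The proteins that the mitochondrial ribosome's products join were also measured. Of 62 nuclear subunits of the complexes that hold mitochondrially encoded subunits, 52 had a positive log2 fold change, 12 had an unadjusted p under 0.05, all higher in KO, and the median was 0.21; over all genes tested 70% were positive, 13.1% were higher at that threshold and the median was 0.13. With TMM factors 44 of the 62 were positive, 5 were higher at that threshold and the median was 0.08. The values of all genes tested were then 51.2% positive, 6.14% higher and a median of 0.0058. Cox8b, the muscle form of a complex IV subunit, had 4323 ± 196 RPM in KO and 2983 ± 500 RPM in WT without overlap (SD, n = 4 each; log2 fold change 0.55, limma adjusted p = 0.08). Cox7a2, another complex IV subunit, averaged 602 ± 88.4 RPM in KO and 414 ± 48.6 RPM in WT (log2 fold change 0.53, limma adjusted p = 0.08). It passed when KO 4 was left out (limma adjusted p = 0.0234) and when both KO 4 and WT 1 were (adjusted p = 0.0100). The 17 cytosolic ribosomal protein genes tested had a median of 0.14 (0.0054 with TMM factors), against 0.16 (0.033) over the 69 mitochondrial ones. Of 13 mitochondrially encoded messenger RNAs looked up by symbol, 0 were in the deposited table, so they were not analysed here.

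The members lay on 17 chromosomes (GENCODE M21, GRCm38), and 16 of 69 (23.2%) shared a start region with a protein-coding gene on the other strand whose start lay within 1000 bases upstream, against 1065 of 10364 tested protein-coding genes (10.3%). Of these partners 13 were tested, 0 passed and their median log2 fold change was 0.17. A gene on the other strand overlapped 31 members and one on the same strand 10. Neither amplicon positions nor strand handling are given in the sources used here, and reads of such pairs may be shared. Mrps11 and Mrpl46, a small and a large subunit gene, overlap each other head to head on chromosome 7 (chr7:78783119-78792989, plus strand, and chr7:78775236-78783531, minus strand). Mrpl47 overlaps Ndufb5, a complex I subunit gene that averaged 719 ± 114 RPM in KO and 595 ± 116 RPM in WT (SD, n = 4 each; log2 fold change 0.28, limma adjusted p = 0.383). Of 19 overlapping genes that were tested, Mrps11 and Mrpl46 among them, 0 passed. The smallest limma adjusted p was 0.0512, for Mtbp, which overlaps Mrpl13 and is named after its value was seen. Mtbp was at low levels, 2.48 ± 0.87 RPM in KO and 0.715 ± 0.261 RPM in WT (log2 fold change 1.01). A pseudogene named after the member is annotated for 1 member, Mrpl48, so its reads are uncertain. Pseudogenes under other names were not looked for.

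Summed endothelial markers did not overlap between the groups. They were 609 to 788 RPM in KO and 417 to 581 RPM in WT libraries; all 10 markers had a positive log2 fold change (70% of all genes tested) and 0 passed. Of the 6 muscle fibre markers 1 was positive. Macrophage markers summed to 30.8 to 51.5 RPM in KO and 23.4 to 35.8 RPM in WT libraries. Of these 7 markers 5 were positive. Tendon markers summed to 77.1 to 210 RPM in KO and 141 to 232 RPM in WT libraries, and 0 of 6 were positive. In the macrophage set and in the tendon set 1 marker each passed (0.803% of all genes tested), and the tendon one was lower in KO. Of the muscle fibre markers 0 passed. No marker was at 0 in all 8 libraries. Xist was above 10 RPM in KO 4 and WT 1 and below it in the other 6 libraries. Ddx3y, a gene of the Y chromosome, was at 0 RPM in KO 4 and WT 1 and at 78.6 to 91.5 RPM in the other 6. By these 2 genes KO 4 and WT 1 read as female and the other 6 libraries as male. Without KO 4 and WT 1 the members held 15 genes higher and 1 lower at an unadjusted p under 0.05 in limma, with 0 passing. Of all genes tested 13.9% were then higher and 5.17% lower. The part of these differences in the members' values was not tested.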

How the data were processed

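The authors deposited RPM values (per 1000000 reads) from the Ion AmpliSeq Transcriptome Mouse panel, which reads 1 amplicon per gene, for 8 libraries. Transcriptome Analysis Console appears in the submitters' processing notes; aligner, build, filters and strand are not given in the sources. Groups came from the sample titles. The labels do not say that each library is a separate animal, and p-values therefore reflect spread between libraries, which may be technical. In every library 100% of values were whole reads within 0.05 reads, which gave the read totals. Reads carry no molecular identifiers, and counting error is the only error that depth gives.

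The 11087 genes that reached 1 RPM in 4 or more libraries were tested by limma 3.58.1 (R 4.3.3) on log2(RPM + 1) (two-sided, variance trend, Benjamini-Hochberg adjustment over all of them). This scale understates changes of low genes. From the recovered reads, edgeR 4.0.16 (quasi-likelihood, TMM) called 92 genes and DESeq2 1.42.0 called 240, against 89 in limma. Members and lists were chosen with earlier results of these data known. Genes were named by a rule: per subunit the 8 smallest p and the 3 highest and lowest fold changes, the S18, stalk and misplaced-symbol genes, and the 2 smallest p of each list. Library pairs differed beyond sampling noise (chi-square over its degrees of freedom, 8.12 to 32.6) and all 8 were kept. Steps were tested on simulated data, with the same dispersion for every gene and no difference in composition set between libraries. That setting does not show which changes could be detected in these libraries. Figures used matplotlib 3.10.9 in Python 3.11.15.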

Additional observations from a re-analysis of the deposited data

Results flagged for a closer look

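In 10 of 178 groups of 4 libraries checked (5.62%), 1 library stood apart from the other 3; chance alone does so in about 1 in 20 groups. Among large subunit genes, Mrpl41 had 30.2 RPM in KO 2 (46.8 to 48.2 RPM in the rest of KO), and Mrpl37 had 75.1 RPM in KO 4 (90.1 to 91.8 RPM in the rest). Mrpl18 had 459 RPM in WT 4 (384 to 395 RPM in the rest of WT), and Mrpl20 had 8.13 RPM in WT 3 (11.7 to 12.1 RPM in the rest).

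Among small subunit genes, Mrps14 had 186 RPM in KO 3 (132.8 to 135.8 RPM in the other KO libraries). Mrps27 had 27.9 RPM in KO 4 (24.6 to 24.9 RPM in the others). Mrps7 had 8.71 RPM in KO 1 (4.61 to 4.94 RPM in the others), on few reads. Of the related genes, Dap3 had 97.1 RPM in KO 3 (75.6 to 78.6 RPM in the others), Aurkaip1 had 11.3 RPM in WT 4 (8.27 to 8.68 RPM in the rest of WT), and Ppargc1b had 41.3 RPM in WT 1 (24.5 to 26.7 RPM in the others). Mrpl41 and Mrps7 are named after their values were seen.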

How the results depend on the processing

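No member passed under any of the 22 alternatives, where the smallest adjusted p of a member ran from 0.0893 to 0.608, and the difference between the subunit medians stayed between -0.02 and 0.05. The median log2 fold change of large and small subunit genes was 0.033 and 0.026 with TMM factors, 0.057 and 0.040 with quantile normalization, 0.024 and 0.028 with edgeR, and 0.023 and 0.027 with DESeq2, all of which scale for composition. Over the table, 59 genes passed without a filter on low values (more genes tested), 240 with DESeq2, 235 with a term for Xist, 392 without KO 4 and WT 1 (the libraries with Xist), 9 without WT 3 and KO 3, and 16 to 263 with 1 library left out; the cause was not tested. Sdhc stayed between 0.026 and 0.0428 of WT with 1 library left out, where 3 against 4 allows no exact p below 0.0571. The medians then ran from 0.14 to 0.19 (large) and 0.11 to 0.20 (small).

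With the replicate number as a block, 81 genes and 0 members passed; numbers did not pair the libraries (correlations of deviations -0.0085, 0.079, -0.121 and -0.0936, and 1 of 8 libraries closest to its own number). Relative to the median of all genes, Mrpl11 turned positive with a pseudocount of 5 (0.029), without a filter (0.068), with quantile normalization (0.012) and without the Xist libraries (0.092). Mrps30 did so without a filter (0.00691) and without WT 3 and KO 3 (0.072), and Mrps18c without a filter (0.00953) and without the Xist libraries (0.013). With 1 library left out the ranges were -0.057 to 0.059 for Mrpl11, -0.16 to 0.051 for Mrps30, -0.12 to 0.00653 for Mrps18c and -0.087 to 0.19 for Mrps18a. Top1mt passed with DESeq2 and without the Xist libraries (adjusted p = 0.0376), Cox8b with a term for Xist (0.0466), and Cox7a2 with that term (0.0495), without the Xist libraries and without KO 4. The other 947 values of 44 genes kept direction relative to that median and call. These are the genes named by rule and 2 outside it, Ptcd3 and Chchd1. On the plain log2 fold change, TMM factors turned 24 members negative, among them Mrpl10 (-0.12), Mrpl11 (-0.0064), Mrps18c (-0.047) and Mrps30 (-0.066).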
